A study of Mus musculus with 20 samples.

Results

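Breast tumors of 20 F1 mice were ranked by the RNA levels of 5 interferon-induced genes, and the 6 highest tumors (interferon-high) were set against the 6 lowest (interferon-low), which left 8 tumors between the groups. The score of a tumor was the mean of the z-scores of log2(CPM + 1), where CPM is counts scaled to a library total of 1000000, over Ifit1, Ifit3, Isg15, Oasl2 and Rtp4. All 20 mice shared one germline genotype, while the paper describes their tumors as genotypically diverse. The mice were female [BALB/c-neuT x FVB/J] F1 offspring of BALB/c males with the neuT transgene, an activated rat Her2/neu oncogene, and FVB/J females without it, and they developed mammary tumors spontaneously at an age of a few months. The labels give no treatment for either group, and 1 tumor was taken from each mouse. The names of 9 tumors carry Lo and those of 11 carry Hi, with no meaning given in the sources used here, and the interferon-high group held 4 Lo and 2 Hi tumors against 2 Lo and 4 Hi tumors in the interferon-low group. RNA came from small pieces of frozen tumor, so malignant cells, stroma and immune cells were measured together, and fewer cells of a type cannot be told apart from less RNA per cell.

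Interferons are secreted proteins, some of which cells release on sensing viral or misplaced nucleic acid. Type I interferons (IFN-alpha and IFN-beta) bind the receptor of Ifnar1 and Ifnar2, and type II interferon (IFN-gamma) binds that of Ifngr1 and Ifngr2. The JAK kinases on these receptors phosphorylate STAT proteins. Complexes of STAT proteins with IRF9 then bind the interferon-stimulated response element (ISRE) of antiviral genes, and STAT dimers bind the gamma-activated site (GAS). In breast tumors these genes can be expressed by the malignant cells as well as by the surrounding stromal and immune cells.

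Sequence around the transcription start is shown for those score genes, and those of the called genes with the smallest p-values, that had a promoter in the table used and held the ISRE core in the window searched. The window ran from 250 bases before to 50 bases after each RefSeq start of the GRCm38.p6 assembly, the build that mm10 names. The core was searched on both strands as GAAA, any 2 bases, GAAA, or TTTC, any 2 bases, TTTC, overlapping matches included. Each stretch is written 5′ to 3′ in the direction of the gene, and capitals mark the core.
Ifit1: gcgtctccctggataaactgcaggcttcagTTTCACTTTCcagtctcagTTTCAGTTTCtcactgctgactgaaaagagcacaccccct
Ifit3: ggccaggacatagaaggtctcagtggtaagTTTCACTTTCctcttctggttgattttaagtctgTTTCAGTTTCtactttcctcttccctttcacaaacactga
Isg15: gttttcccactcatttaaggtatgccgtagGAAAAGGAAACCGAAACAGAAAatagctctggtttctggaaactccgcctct
Apol9a: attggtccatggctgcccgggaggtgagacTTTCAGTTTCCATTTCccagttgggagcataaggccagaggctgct
Rsad2: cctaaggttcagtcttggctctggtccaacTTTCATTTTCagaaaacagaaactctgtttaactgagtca

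The Ifit1 stretch lies at chr19:34640755-34640843 on the plus strand and holds 2 matches. The Ifit3 stretch, at chr19:34583343-34583446 on the plus strand, also holds 2. In Isg15, at chr4:156200845-156200926 on the minus strand, 3 matches overlap in a single run. The Apol9a stretch is at chr15:77411094-77411169 on the minus strand, with 2 overlapping matches, and that of Rsad2 at chr12:26456533-26456602 on the minus strand, with 1. Oasl2 and Oasl1 held no match in their windows, and Rtp4 and Usp18 had no entry. The ISRE core was present in 3.44% of the 32851 promoters of the same length in the table. Of the 81 genes called higher (below), 63 had a promoter in the table and 32 of these, or 50.8%, held the core. Among all genes tested, 12237 of 18817 had a promoter and 464, or 3.79%, held it. The GAS core, searched as TTC, any 3 bases, GAA, which reads the same on both strands, was found in 13 of the 63 (20.6%) and in 1024 of the 12237 (8.37%), against 8.30% of all promoters. Since under 80% of either set had a promoter in the table, these shares describe the matched promoters, and as a check of the whole sets they are void. A match of letters is not evidence of binding.

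The 5 score genes chose the tumors, so their levels are a description with no test. Ifit1 encodes a protein that binds foreign RNA and Ifit3 a protein of the same family. Isg15 encodes a ubiquitin-like modifier, Oasl2 a protein of the 2′-5′ oligoadenylate synthetase family, and Rtp4 a chaperone of receptors. Ifit1 was at 19.7, 34.0 and 71.9 CPM in the interferon-high tumors (lowest, median and highest) and at 3.76, 8.65 and 11.5 CPM in the interferon-low tumors. Oasl2, the most abundant of the 5 in the high tumors on the CPM scale, ranged from 33.5 to 171 CPM there and from 12.1 to 25.9 CPM in the low tumors. Isg15 reached 20.1 to 49.1 CPM against 5.31 to 13.3 CPM, Ifit3 16.8 to 60.6 against 3.65 to 9.75 CPM, and Rtp4 29.99 to 81.4 against 11.2 to 22.7 CPM. The groups overlapped in none of these 5 genes. The file lists Ifit3b, a near copy of Ifit3, as I830012O16Rik, and reads may be split between the copies.

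Scores fell from 2.02 in Lo_2 and 2.02 in Lo_1 to 0.20 in Hi_8, the last tumor of the interferon-high group, and the next tumor, Lo_7, was at 0.13. On the low side Hi_7 was the first inside the group at -0.63, beside Hi_4 outside it at -0.57, and Hi_1 was lowest at -1.74. The interferon-high group was thus uneven. Its 4 Lo tumors scored 0.95 to 2.02 and its 2 Hi tumors 0.20 and 0.69, whereas the interferon-low group's 2 Lo tumors scored -0.87 and -0.73 and its 4 Hi tumors -1.74 to -0.63.

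**Figure D1:**
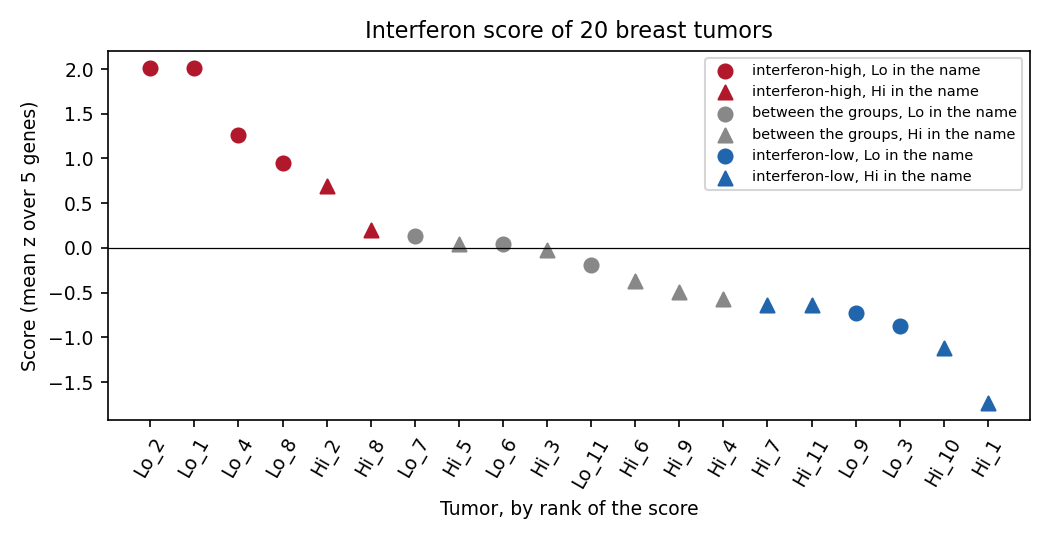
Interferon score (mean z-score over 5 genes, no unit) of each of the 20 tumors, ordered by rank. Color gives the group and marker shape the Lo or Hi in the tumor's name. Lo_2 and Lo_1 stand at 2.02, and the step from Hi_8 (0.20) to Lo_7 (0.13) at the edge of the high group is small.

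Total counts per tumor ran from 38765682 to 65465755 over the series. The non-coding transcripts Yam1 and AY036118, which overlap ribosomal RNA sequence, took 6.29% to 27.7% of them and were left out of library sizes. Total count was 50080746 ± 8693264 in the high and 52788487 ± 6690640 in the low tumors (SD, n = 6 each), with a two-sided exact permutation p of 0.552. The share of Yam1 and AY036118 (13.6% ± 5.59 against 15.0% ± 5.13, exact p = 0.647) and the number of genes with at least 1 count (24753 ± 671 against 24742 ± 667, exact p = 0.970) gave an adjusted p of 0.970, as did total count, over the 3 measures. With the 4 highest against the 4 lowest tumors, total count was lower in the high tumors by 9880036 counts (exact p = 0.0286, the smallest that 4 against 4 allows). The part of depth in the results was not tested.

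Across all other genes, 81 rose and 8 fell in the interferon-high tumors among 18817 tested (edgeR quasi-likelihood test, Benjamini-Hochberg adjusted p under 0.05). This was 0.473% of the genes tested, with 0.43% higher and 0.0425% lower. At an unadjusted p under 0.05 there were 1413 genes, or 7.51%, with 4.38% of all genes tested higher. DESeq2 called 224 higher and 51 lower, and a fit with the Lo or Hi label as a covariate 26 higher and 0 lower. A fit with a replicate block on the numbers in the tumor names called 0 genes (743 at an unadjusted p under 0.05). In that fit only Lo_1 and Hi_1 shared a number across the groups. Its group term rested on this pair, so its 0 calls cannot decide whether the other calls hold. The groups were chosen by RNA levels in the same libraries, so the test describes which genes varied with the score and is no independent evidence that the groups exist. All 6 high tumors lay above all 6 low tumors in 70 of the 81 higher genes, against 0.632% of all genes, and all lay below in 5 of the 8 lower genes, against 0.218%. The median log2 fold change of the genes called higher was 1.39, and 63 of them exceeded 1. Among these 81 genes the highest of the 12 levels was in Lo_1 for 41 and in Lo_2 for 34, and the lowest was in Hi_1 for 59. Leaving out 1 tumor at a time gave 41 to 113 calls, with 41 without Hi_10, 42 without Lo_3, 45 without Lo_1, 45 without Lo_2, 46 without Hi_7, 51 without Lo_4 and 59 without Hi_1. Of the 89 genes, 37 were called in all 12 such fits, and the others lost their call in 1 or more, as given below for those named. For genes at a mean log2 CPM of at least 1, the median log2 fold change was 0.14 on chr2 and 0.10 on chr4. On the other autosomes it ran from -0.071 to 0.0076. The part of chromosome dosage in the results was not tested.

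The secreted ligands were barely detected. None of the 18 interferon genes listed passed the filter on low counts, and 11, among them Ifna1, Ifna2, Ifna4 and Ifnab of the IFN-alpha family, had 0 counts in all 20 tumors. A count of 0 allows up to 3 counts, which was 0.0513 to 0.0987 CPM in these libraries, for counting error only. Ifnb1, which encodes IFN-beta, had 18 counts over the interferon-high tumors, with reads in 3 of 6, and 4 counts over the interferon-low tumors, with reads in 2 of 6. Its highest count in any tumor was 12, in Lo_8. Ifng, which encodes IFN-gamma, had 8 counts against 4, in 4 and 2 tumors. Ifne had 10 counts in 3 high tumors and 0 in the low tumors. Fitted without the filter, no ligand was called by edgeR (adjusted p = 0.732 for Ifnb1, 0.837 for Ifng and 0.626 for Ifne, with Ifne the 1 ligand at an unadjusted p under 0.05, 0.0144), and a difference in ligand RNA was not detectable at this depth. DESeq2 was not run on these genes.

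Receptors and their kinases overlapped between the groups. None of the 9 genes in that list passed the test in edgeR or in DESeq2, and none had an unadjusted p under 0.05 in edgeR. Their median log2 fold change was -0.03 beside -0.01 over all genes tested, with a range from -0.17 to 0.09. Ifnar1 was at 79.7, 81.9 and 85.1 CPM in the high tumors (lowest, median, highest) and at 81.9, 84.4 and 94.7 CPM in the low tumors, a log2 fold change of -0.07 with a standard error (SE) of 0.06. For Ifnar2 the medians were 55.3 and 53.0 CPM and the log2 fold change 0.07 (SE 0.07). The IFN-gamma receptor genes gave 0.09 (SE 0.12) for Ifngr1 and -0.03 (SE 0.12) for Ifngr2 on the log2 scale, and the groups overlapped in all 4 receptor genes. The direction of Ifngr2 turned under several alternatives. Reads of the rat transgene may be assigned to Erbb2, its mouse counterpart, which had medians of 222 and 229 CPM (log2 fold change -0.10, SE 0.10, adjusted p = 0.907).

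**Figure D2:**
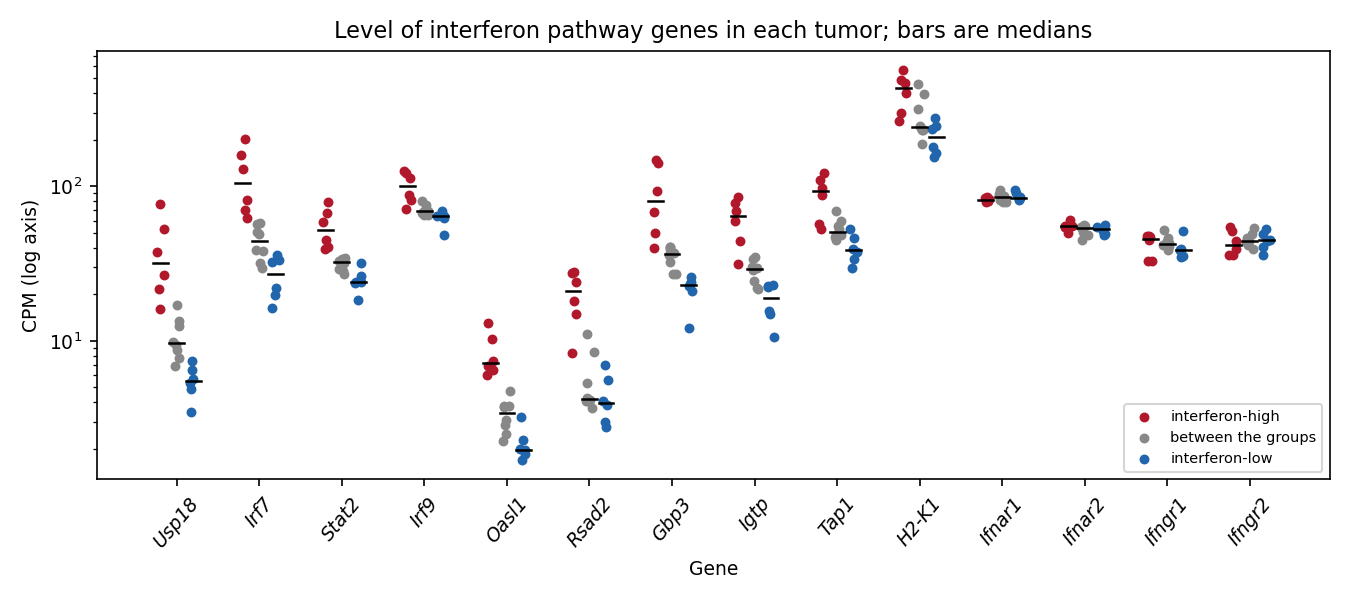
Level in CPM (log axis) of 14 interferon pathway genes in the 20 tumors, with interferon-high tumors in red, those between the groups in grey and interferon-low tumors in blue, and bars at the medians. Usp18, Irf7 and Stat2 separate the groups, whereas the receptor genes Ifnar1, Ifnar2, Ifngr1 and Ifngr2 overlap.

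Of the 10 STAT and IRF transcription factors, 4 rose. They included Stat2 and Irf9, which bind the ISRE together, and Irf7, the factor that amplifies type I interferon transcription. Stat2 (chr10:128270576-128292849) ranged from 39.2 to 79.6 CPM in the high tumors against 18.3 to 32.1 CPM in the low tumors, a log2 fold change of 1.16 (SE 0.18, adjusted p = 0.0113). The high tumors lay above the low tumors without overlap. Irf9 (chr14:55603571-55610030) moved least of the 3, at 71.3 to 126 CPM against 48.4 to 69.5 CPM, with a log2 fold change of 0.69 (SE 0.14, adjusted p = 0.0485), and it lost its call in 10 of the 12 fits that left out a tumor. Irf7 (chr7:141262706-141266481) ran from 62.4 to 202 CPM against 16.3 to 35.8 CPM, a log2 fold change of 2.14 (SE 0.30, adjusted p = 0.00758). The other 6 factors of the list, among them Stat3, Irf1, Irf3 and Irf8, did not pass the test in either tool, and 5 of the 10 had an unadjusted p under 0.05.

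Of 9 negative regulators of the pathway, 1 rose. Usp18 (chr6:121245906-121270916), which removes ISG15 from its targets and dampens type I receptor signalling, rose from a median of 5.50 CPM in the low tumors to 32.1 CPM in the high tumors. The high tumors spanned 16.005 to 77.3 CPM and the low tumors 3.46 to 7.38 CPM, without overlap. Its log2 fold change was 2.81 (SE 0.345, adjusted p = 0.00758). The other 8 genes of this list, including the SOCS genes and phosphatases, did not pass the test, and the list's median log2 fold change was -0.01.

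In the list of ISG15 conjugation 5 of 5 genes rose, with a median log2 fold change of 1.21. The list includes Usp18, which removes ISG15 and was also counted among the negative regulators. ISG15 is attached to proteins by an activating enzyme, a conjugating enzyme and ligases. Uba7, the activating enzyme, was at 38.4 to 92.0 CPM in the high tumors and at 19.1 to 33.5 CPM in the low tumors (log2 fold change 1.13, SE 0.20, adjusted p = 0.021). Ube2l6, the conjugating enzyme, was at 13.5 to 49.1 CPM against 7.504 to 11.6 CPM, with a log2 fold change of 1.71 (SE 0.27, adjusted p = 0.012). Herc6, the main ligase in mice, was at 17.98 to 41.1 CPM against 9.03 to 13.9 CPM (1.21, SE 0.20, adjusted p = 0.0156). The high tumors were above the low tumors in each of these genes. The remaining members are Usp18 and Trim25, whose log2 fold change was 0.41. The call was lost in 1 of the 12 fits that left out a tumor for Herc6, in 4 for Uba7 and in 11 for Trim25.

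Among antiviral effectors, 14 of 25 rose and none fell, 22 had an unadjusted p under 0.05, and the median log2 fold change was 1.47. The 14 included Ifit3b, a near copy of the score gene Ifit3 whose reads may be shared with it. Its call may thus draw on values that chose the groups. Oasl1 had the smallest p-value of all genes, and it lies close to the score gene Oasl2 on chr5. Oasl1 was at 5.98, 7.14 and 12.9 CPM in the high tumors and 1.69, 1.97 and 3.21 CPM in the low tumors. Its log2 fold change was 1.94 (SE 0.22, adjusted p = 0.00545). Rsad2, which encodes viperin, an enzyme that makes a chain-terminating nucleotide, was at 8.39 to 27.8 CPM against 2.77 to 6.98 CPM (log2 fold change 2.20, SE 0.30, adjusted p = 0.00758). Oas1a, a synthetase of 2′-5′ oligoadenylates, was at 16.6 to 56.7 CPM against 7.04 to 13.7 CPM (log2 fold change 1.89, SE 0.26). Bst2, or tetherin, which holds budding virions at the cell surface, was at 65.8 to 235 CPM against 25.7 to 37.5 CPM (log2 fold change 1.96, SE 0.28, adjusted p = 0.00763). The groups overlapped in none of these 4 genes. Oas1a and Oas1g are close relatives whose reads may be shared. DESeq2 called 20 of the 25. Members that passed in neither tool included Isg20, Ifitm1 and Ifitm2, and the lowest log2 fold change of the list was -0.04.

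The list of other interferon-stimulated genes had 15 of 30 higher, 27 with an unadjusted p under 0.05, a log2 fold change above 0 in all 30 and a median of 1.04. Apol9a was at 13.03, 25.3 and 48.1 CPM against 3.12, 5.21 and 6.9999 CPM (log2 fold change 2.44, SE 0.31, adjusted p = 0.00758). Its near copy Apol9b moved by 2.47 (SE 0.35), and how reads were divided between the copies is uncertain. Ifi44, a GTP-binding antiviral protein, was at 35.9 to 113 CPM against 8.84 to 18.5 CPM, a log2 fold change of 2.22 (SE 0.31). Parp12, an ADP-ribosyltransferase, was at 32.5 to 64.8 CPM against 16.4 to 25.4 CPM (1.08, SE 0.16, adjusted p = 0.0105). In all 4 genes the high tumors lay above the low tumors.

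Interferon-inducible GTPases, which assemble on the vacuoles of intracellular pathogens, had 8 of 15 tested members higher, and the median of 1.65 was the largest of the pathway lists. All 15 had an unadjusted p under 0.05. Gbp3 was at 40.2 to 147 CPM against 12.03 to 26.1 CPM, with a log2 fold change of 2.06 (SE 0.31, adjusted p = 0.0105). Gbp2 was at 38.2 to 78.0 CPM against 13.5 to 29.3 CPM (1.42, SE 0.22). The immunity-related GTPases Igtp and Irgm2, whose exons overlap on the same strand, were at 31.4 to 85.0 CPM against 10.6 to 23.1 CPM (1.75, SE 0.24) and at 25.8 to 60.7 CPM against 8.61 to 19.1 CPM (1.499, SE 0.23). The p200 family of DNA-binding proteins had 2 of 8 tested members higher, Ifi204 (log2 fold change 1.001, SE 0.18) and Ifi203 (0.98, SE 0.20), with a median of 0.97. All 8 had a log2 fold change above 0, 7 had an unadjusted p under 0.05, and DESeq2 called 6. Without 1 tumor the call was lost in 6 of 12 fits for Ifi204 and in 10 for Ifi203.

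Of 16 genes of nucleic acid sensing, 5 rose. The receptors of double-stranded RNA Ddx58 (RIG-I), Ifih1 and Dhx58, the Z-form nucleic acid sensor Zbp1 and the RNA-editing enzyme Adar were the genes that rose. Zbp1 was at 20.1 to 78.5 CPM against 6.67 to 17.7 CPM, with a log2 fold change of 1.77 (SE 0.31, adjusted p = 0.021). Dhx58 moved by 1.35 (SE 0.20), Ddx58 by 0.996 (SE 0.19) and Adar by 0.73 (SE 0.14). The call was lost in 5 of the 12 fits without 1 tumor for Zbp1 and in 8 each for Ddx58, Ifih1 and Adar. Adaptors, kinases, Toll-like receptors and the cGAS and STING genes (Mb21d1 and Tmem173 in the file) did not pass the test, and the list's median was 0.21. Reads of the antisense transcript Dhx58os, which rose by 1.32 on the log2 scale (SE 0.21), cannot be told apart from those of Dhx58, since whether counting used strand is not stated.

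**Figure D3:**
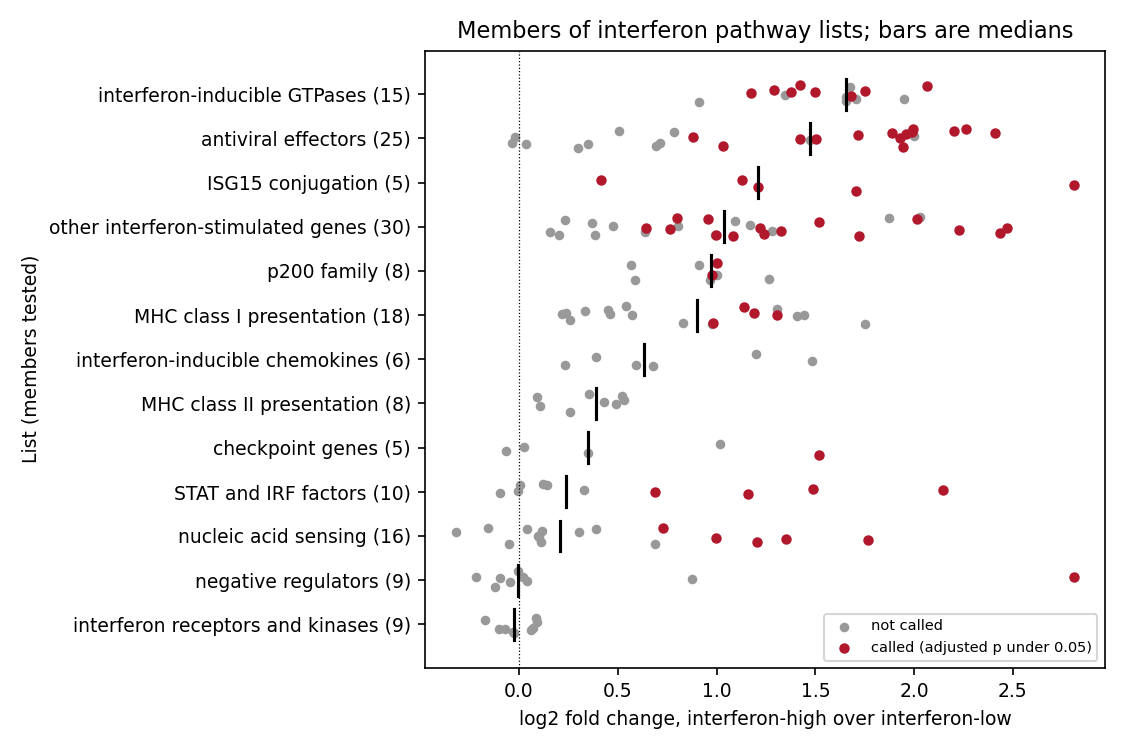
Log2 fold change (interferon-high over interferon-low) of each tested member of 13 interferon pathway lists, with called genes in red, the others in grey and bars at the list medians. ISG15 conjugation has 5 of 5 members called, whereas the receptors and kinases (0 of 9) center on 0.

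Of the genes that load peptides on MHC class I, 4 of 18 rose, 17 had an unadjusted p under 0.05, and all 18 had a log2 fold change above 0, with a median of 0.90. The peptide transporter subunit Tap1 (chr17:34187553-34197225) was at 52.8, 93.0 and 122 CPM in the high tumors and 29.7, 38.6 and 52.6 CPM in the low tumors, without overlap (log2 fold change 1.14, SE 0.20, adjusted p = 0.0226). The immunoproteasome subunits Psmb9 and Psmb8 moved by 1.31 (SE 0.25) and 1.19 (SE 0.24). H2-K1, a classical class I heavy chain, was at 267 to 566 CPM against 156 to 276 CPM, a log2 fold change of 0.98 (SE 0.19, adjusted p = 0.0411), and the groups overlapped. Without 1 tumor the call was lost in 8 of 12 fits for Tap1 and in 9 each for Psmb9, Psmb8 and H2-K1. The mice carry the H2 alleles of BALB/c and FVB while reads were aligned to the C57BL/6 genome, and the effect of this on counts of H2 genes was not tested. DESeq2 called 13 of the 18. In MHC class II presentation none of the 8 tested genes was called in edgeR or DESeq2, 3 had an unadjusted p under 0.05, and the median was 0.39. H2-Aa was at 32.1 to 66.2 CPM against 21.7 to 50.4 CPM (0.53, SE 0.19, adjusted p = 0.461). Whether class I and class II genes differed in response was not tested.

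The interferon-inducible chemokines, which recruit T cells or monocytes, were low. None of the 6 tested was called in edgeR, 2 had an unadjusted p under 0.05, and DESeq2 called 1, Cxcl10. Cxcl10 was at 0.796, 1.59 and 2.71 CPM against 0.294, 0.528 and 1.23 CPM (log2 fold change 1.48, SE 0.38, adjusted p = 0.154), and Cxcl9 at 1.32 to 3.71 CPM against 0.35 to 1.81 CPM (1.198, SE 0.37). Of 5 checkpoint genes tested, 1 was called in edgeR, 2 had an unadjusted p under 0.05, and DESeq2 called 2, Cd274 and Lgals9. The edgeR call was Lgals9, which encodes galectin-9, at 43.9 to 115 CPM against 19.7 to 37.1 CPM (1.52, SE 0.25, adjusted p = 0.0124). Lgals9 is also counted among the other interferon-stimulated genes above.

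Summed levels of leukocyte, macrophage, T cell and cytotoxic cell markers overlapped between the groups. The 7 pan-leukocyte markers summed to 349 to 624 CPM in the high tumors and 486 to 601 CPM in the low tumors, with a median log2 fold change of 0.20. None of them was called in edgeR or DESeq2, and 2 had an unadjusted p under 0.05, Cd52 (0.46, SE 0.17) and Coro1a (0.30, SE 0.11). Macrophage markers summed to 395 to 500 CPM against 320 to 465 CPM, with 0 of 9 called in edgeR or DESeq2, 1 with an unadjusted p under 0.05, and C1qc at a log2 fold change of 0.25 (SE 0.10). T cell markers summed to 5.37 to 7.90 CPM against 4.06 to 6.73 CPM, with 5 of 9 tested and a median of 0.42, and those of NK and cytotoxic cells to 1.93 to 5.73 CPM against 1.23 to 2.43 CPM, with 5 of 8 tested and a median of 0.82. In each of these lists 2 genes had an unadjusted p under 0.05 and none was called in edgeR or DESeq2. The log2 fold change was above 0 in 6 of 7 pan-leukocyte and 6 of 9 macrophage markers. It was above 0 in all 5 T cell and all 5 NK and cytotoxic markers tested, against 9102 of all 18817 genes. Gzmb, a granule protease of killer cells, was at 0.364 to 2.78 CPM against 0.185 to 0.750 CPM (1.30, SE 0.48, adjusted p = 0.482). Plac8, in the monocyte list, rose by 1.43 (SE 0.30, adjusted p = 0.0499), a call that was lost in 11 of 12 fits without 1 tumor. The plasmacytoid dendritic cell list summed to 121 to 278 CPM in the high tumors and 65.9 to 108 CPM in the low tumors, without overlap, with 1 of 5 tested members called and 3 with an unadjusted p under 0.05. The called member was Bst2, which also stands as an antiviral effector. Without Bst2 the other 6 listed genes summed to 38.8 to 61.3 CPM against 40.2 to 70.5 CPM, with overlap. Siglech, a defining marker of these cells, was at 0.789 ± 0.235 CPM against 0.512 ± 0.187 CPM (SD, n = 6 each, edgeR adjusted p = 0.656). Over the 14 cell type lists with no call, 15 of 88 members tested had an unadjusted p under 0.05. With a leukocyte score as a covariate, 37 genes were called, all among the 89.

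Adipocyte markers were lower in the high tumors in 7 of 7 genes on the log2 scale (median -1.25), and none was called in edgeR or DESeq2, with 2 at an unadjusted p under 0.05. Their sums overlapped, at 9.36 to 79.4 CPM against 22.3 to 62.6 CPM. Adipoq, the gene of the hormone adiponectin, had medians of 0.748 and 4.28 CPM (-1.29, SE 0.55, adjusted p = 0.597), and Lep, that of leptin, a log2 fold change of -2.19 (SE 0.65, adjusted p = 0.249). Fibroblast markers were above 0 in 8 of 8 genes, with a median of 0.43, sums of 1103 to 2706 CPM against 740 to 1573 CPM, 0 called in edgeR or DESeq2 and 2 with an unadjusted p under 0.05. Immediate-early genes, which respond within minutes to stimulation or tissue handling, were below 0 in 8 of 8 genes, with a median of -0.54, 5 with an unadjusted p under 0.05 and 0 called in edgeR or DESeq2. Fos was at 34.5, 40.7 and 119 CPM in the high tumors against 37.0, 132 and 466 CPM in the low tumors (-1.56, SE 0.56, adjusted p = 0.447). Luminal markers, which define the labelled tissue, summed to 3759 to 4378 CPM against 3639 to 5013 CPM, with a median of 0.03. The part of these differences in the interferon result was not tested.

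**Figure D4:**
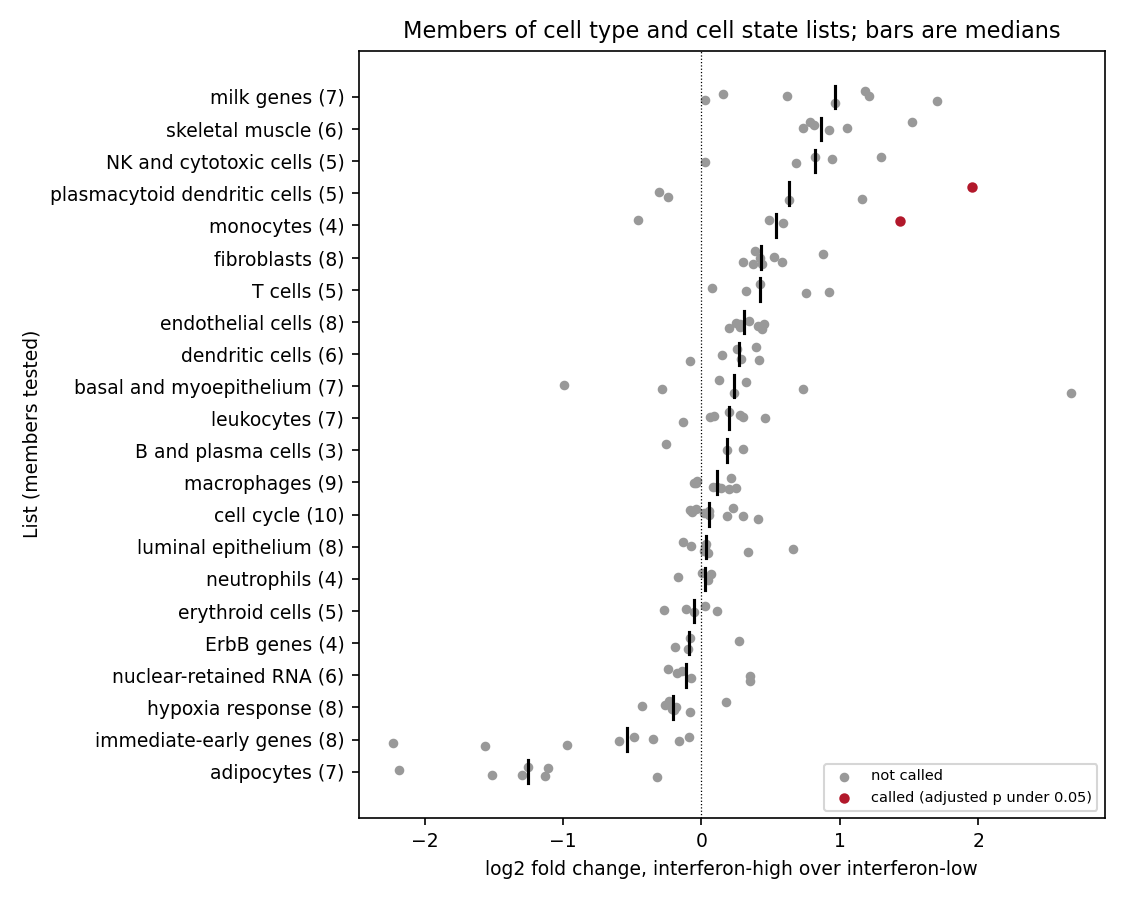
Log2 fold change (interferon-high over interferon-low) of each tested member of 16 cell type lists and 6 cell state lists, with called genes in red, the others in grey and bars at the list medians. The called genes are Bst2 and Plac8, adipocyte and immediate-early medians lie below 0 (-1.25 and -0.54), and the luminal median is 0.03.

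Of the 89 called genes, 58 stood in a list and 31 outside, 23 higher and 8 lower. Several of the 23 belong to interferon-linked families or overlap a called gene. Ddx60, a helicase that acts with RIG-I, was at 9.59 to 39.7 CPM against 2.68 to 7.76 CPM (log2 fold change 1.97, SE 0.32, adjusted p = 0.0124). Slfn2 rose by 1.29 (SE 0.25), H2-T24, a class I-like gene, by 1.44 (SE 0.26) and Ifi202b, a p200 gene, by 1.12 (SE 0.22). Gm12250, annotated as a processed pseudogene, moved by 2.09 (SE 0.39). AW011738, which lies close to the score gene Isg15 on chr4, moved by 1.01 (SE 0.19). These 5 genes lost their call in 7 or 8 of the 12 fits without 1 tumor, and Ddx60 in 0. Mir6381 lies opposite Gbp2 exons and Gm20496 opposite those of Psmb8 and Tap2, so their log2 fold changes of 1.39 and 1.03 cannot be told apart from those genes. Of the genes named, Oasl1, Usp18, Irf7, Irf9, Herc6, Uba7, Adar, Ifi203, Gabra4 and Hoxa7 share exon bases with another annotated gene, as Tap1 does with Psmb9, and part of their reads may belong to that gene.

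Receptor and transporter genes were also among the 23. Gabra4, a subunit of the GABA-A receptor for the neurotransmitter GABA, was at 0.686, 1.12 and 2.61 CPM in the high tumors and 0.0905, 0.126 and 0.397 CPM in the low tumors, without overlap. Its log2 fold change was 2.86 (SE 0.46, adjusted p = 0.0114), and 2 of the tumors between the groups were higher than any in either, Hi_3 at 4.95 CPM and Lo_11 at 4.33 CPM. Slc43a3, a nucleobase transporter, was at 32.8 to 47.4 CPM against 22.6 to 30.6 CPM (0.61, SE 0.10, adjusted p = 0.0154). Ogfr, the opioid growth factor receptor, moved by 0.76 (adjusted p = 0.016). In 2 of the 12 fits without 1 tumor Slc43a3 lost its call, and so did Ogfr in 2, whereas Gabra4 kept it. Gabra4 lost its call with the continuous score over 20 tumors (log2 slope 0.72 per unit of score, adjusted p = 0.740), with 4 against 4 tumors (adjusted p = 0.0893) and with 8 against 8 (adjusted p = 0.0841).

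All 8 genes that fell were outside the lists. Ypel4 was at 1.39, 1.87 and 2.75 CPM in the high tumors and at 3.40, 4.36 and 6.69 CPM in the low tumors, without overlap (log2 fold change -1.27, SE 0.22, adjusted p = 0.0209). Gpr98, a very large adhesion receptor, was at 2.62 to 4.98 CPM against 4.43 to 13.6 CPM (-1.52, SE 0.25, adjusted p = 0.0124). It was the 1 lower gene that stayed called whichever tumor was left out, and it lost its call with 4 against 4 tumors (adjusted p = 0.127). Hoxa7, a homeobox transcription factor, was at 0.265 to 0.979 CPM against 0.508 to 7.80 CPM, with overlap (-2.64, SE 0.54, adjusted p = 0.0494). With a replicate block on the numbers in the tumor names its direction turned (0.22), but that value compares only Lo_1 with Hi_1. RP24-116C1.6 gave -1.87 (SE 0.37). Smaller decreases without overlap were those of Tmem154 (-0.56), Sipa1l1 (-0.45), the zinc-finger gene Tshz1 (-0.36) and the desmosomal cadherin Dsc2 (-0.35), with SEs of 0.07 to 0.12. Apart from Gpr98, the lower genes lost their call in 5 (Ypel4) to 12 (Dsc2) of the fits without 1 tumor.

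The 8 tumors between the groups were not used in the fold changes, although the same score ranked them. There, 77 of the 81 genes called higher had a slope on the score above 0, against 49.5% of all genes, and 6 of the 8 genes called lower had a slope below 0. No gene was called in these 8 tumors alone by edgeR, with 488 at an unadjusted p under 0.05 (2.59%). DESeq2 was not run on them. Irf7 lay between 29.5 and 57.5 CPM there and Usp18 between 6.87 and 17.04 CPM, so that Irf7 reached into the range of the low tumors and Usp18 into that of both.

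Within the tumors of 1 label, the 89 genes moved in the direction of the whole comparison. The labels split the same 12 tumors on which the genes were called, so that this agreement is largely set by the choice of genes. No gene was called by edgeR in either label (0 within Lo, 1267 at an unadjusted p under 0.05, and 0 within Hi, 699). The median log2 fold change of the 81 higher genes was 1.55 within Lo (4 high, 2 low) and 0.85 within Hi (2 high, 4 low), and it was larger within Lo for 78 of them. The scores of the high tumors were also farther apart from those of the low tumors within Lo. No gene was called in the test of the difference between labels (edgeR interaction term), with 588 at an unadjusted p under 0.05, or 3.12%. With the label as a covariate, 26 genes were called, all of them higher and all among the 89.

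**Figure D5:**
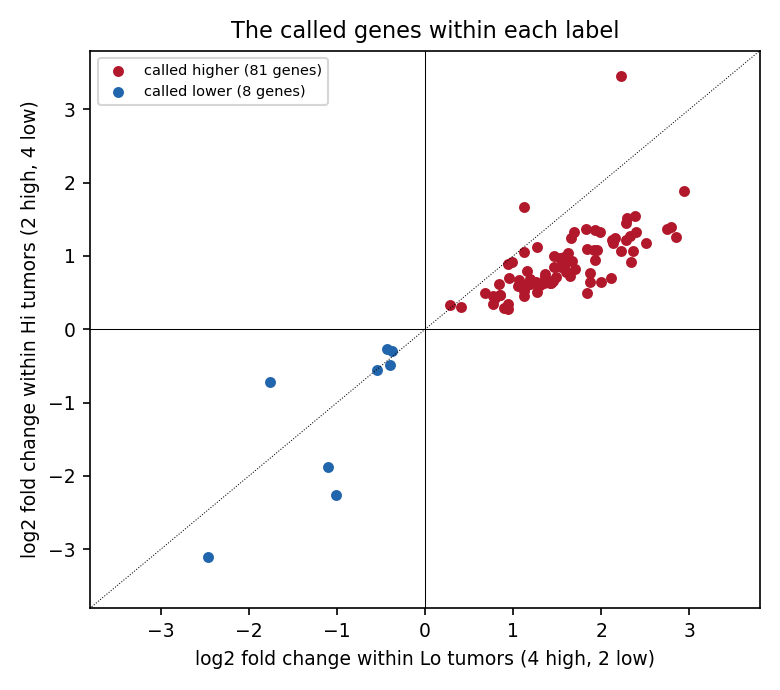
Log2 fold change (interferon-high over interferon-low) within Lo tumors (horizontal axis) and within Hi tumors (vertical axis) for the 89 called genes, with genes called higher in red and lower in blue and a dotted line of equality. The genes were called on these same tumors, which largely sets the shared direction, and 78 of the 81 higher genes are larger within Lo.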

How the data were processed

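RNA of 20 tumors was sequenced as paired-end TruSeq mRNA libraries at the same time. Per the study's methods and processing notes, reads were trimmed to a common length and aligned to mm10 with TopHat2 2.0.12, and featureCounts 1.4.4 is named. The strand setting and annotation release are not given in the sources used here. The authors deposited raw counts per gene, with gene IDs, coordinates and coding length, for 43346 genes, and no column of other samples. All 37 mitochondrial genes were at 0.

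The score, its groups and the gene lists were chosen with earlier results of these data known. z-scores used the SD over 20 tumors. Yam1 and AY036118 (annotated genes over ribosomal sequence) were left out of totals, and they and the 5 score genes out of the tests. CPM were scaled by TMM over all tumors. The 12 tumors were fitted with edgeR 4.0.16 in R 4.3.3 (filterByExpr, TMM, glmQLFit, glmQLFTest), with Benjamini-Hochberg adjustment at 0.05. Log2 fold changes and SEs come from that fit, each SE from the size of the fold change and its F statistic. Total counts of 38765682 to 65465755 per tumor set the counting precision. The p-values measure spread between tumors of separate mice. On simulated counts with 200 genes planted at a log2 change of 1 in either direction, the test of 6 against 6 tumors recovered 144, with 7 false calls among 18817 genes.

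Genes were named by rule: the score genes, core pathway genes, per list the 4 called members with the smallest p-values (2 where none was called), and outside the lists, per direction, up to 10 with the largest fold change at a mean log2 CPM of at least 1 and 5 with the smallest p-value. Further list members were named after their values were seen. Alternatives were DESeq2 1.42.0, other filters, scores, group sizes and covariates, a continuous score, a replicate block and each tumor left out.

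Some genes of the lists, counted in the totals, are not reported here by name.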

Additional observations from a re-analysis of the deposited data

Results flagged for a closer look

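In 8 of 156 groups of 6 tumors tested, a tumor lay far from the other 5 of its group on the log2 CPM scale. For independent groups chance would give about 1 in 20. Here the groups were cut by the score, its 5 genes were among those tested, and many others varied with it. That rate is thus no baseline, and the flags are a description. In the interferon-low group the far tumor was Hi_1, the tumor with the lowest score, for 4 interferon-stimulated genes. Its level of Irf9 was 48.4 CPM against 62.2 to 69.5 CPM in the other 5, and that of Herc6 9.03 against 11.96 to 13.9 CPM. Gbp3 was at 12.03 CPM in Hi_1 against 20.9 to 26.1 CPM, and Ddx60 at 2.68 against 6.13 to 7.76 CPM. On the high side of that group, H2-T24 was at 7.75 CPM in Hi_10 against 4.91 to 5.70 CPM, Ifi202b at 7.08 CPM in Hi_11 against 3.42 to 4.09 CPM, and Ifngr1 at 51.2 CPM in Hi_11 against 34.9 to 39.1 CPM. In the interferon-high group, Nkg7, a granule protein of cytotoxic lymphocytes, was at 0.203 CPM in Lo_2 against 0.620 to 0.767 CPM in the others.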

How the results depend on the processing

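The 89 calls rose to 275 with DESeq2, which included all 89, and to 229 with a continuous score over all 20 tumors, which included 84. They fell to 26 with the Lo or Hi label as a covariate, to 37 with the leukocyte score as a covariate, and to 0 within Lo and 0 within Hi tumors. Called members of the pathway lists, 57 in the comparison reported, moved in step to 94 (DESeq2), 99 (continuous score), 22 (label), 29 (leukocyte score), 0 and 0. Leaving out each tumor gave 41 to 113 calls and 33 to 71 list members (33 without Lo_3, 34 without Hi_7, 34 without Hi_10 and 36 without Lo_2). Other filters, scores and group sizes and keeping Yam1 and AY036118 gave 85 to 105 calls, but not always of the same genes. Of the 89, 67 were called with 4 against 4 tumors and 74 with 8 against 8. With Yam1 and AY036118 kept 76 were called, and with a TMM-based score 78. Each of these 2 settings kept 5 of the 6 low tumors. The other filters and the median of the z-scores kept 84 to 89. What the numbers in the tumor names mean is not given in the sources used here. Same-numbered Lo and Hi tumors had correlations of -0.40 to 0.21 after removal of the label means (3 of 9 over 0.1), which cannot decide whether they are paired. With a replicate block on these numbers, 0 genes and 0 list members were called among the 12 tumors (743 at an unadjusted p under 0.05). Only Lo_1 and Hi_1 carried the same number in different groups, so that fit compared the groups through this pair alone. With the block over all 20 tumors and a continuous score, chosen after seeing the data, 131 were called. Under the 12-tumor block Hoxa7 turned to 0.22, Ifnar1 to 0.032, Erbb2 to 0.15 and Ifngr2 to 0.12 on the log2 scale. These values set Lo_1 against Hi_1 and are no contrast of the groups.

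Ifngr2 also turned to 0.051 with Yam1 and AY036118 kept, 0.019 with the TMM-based score, 0.039 with 8 against 8 tumors, 0.0070 with the label, 0.15 within Hi and 0.0067 with the block over 20 tumors, and ran from -0.11 to 0.022 without each tumor. Ifngr1 turned to -0.072 with the leukocyte score. Of the 51 called genes compared under these settings, none but Hoxa7 changed direction. Cxcl10 passed the test with DESeq2 and with the continuous score. Total count differed by -9880036 with 4 against 4 tumors. The difference in genes with at least 1 count turned to -571.75 with 4 against 4 and to -154.125 with 8 against 8, and spanned -225 to 198.5 without each tumor, as the share of Yam1 and AY036118 spanned -2.97 to 0.086 percentage points. With the window of 200 bases before the start, 41.3% of matched promoters of genes called higher held the ISRE core and 15.9% the GAS core. The causes of these changes were not tested. No interferon ligand was called by edgeR without the filter on low counts.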
